A study of Mus musculus with 6 samples.

Results

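Beta-catenin, the TCF/LEF factors it binds and the Groucho corepressors were followed across 6 mouse neural stem cell lines, 3 labelled FoxO-null and 3 labelled wild-type. The set was given by name as 9 genes: Ctnnb1, Tcf7, Tcf7l1, Tcf7l2, Lef1, Tle1, Tle2, Tle3 and Tle4. Every probe set annotated to exactly 1 of these symbols was read on all 6 arrays, which gave 21 probe sets for 8 genes among 45037 non-control probe sets. No probe set carried the name Tcf7 in the annotation used, and Tcf7 was not analysed here.

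In this pathway beta-catenin is made continuously and, without a Wnt signal, is marked by a cytoplasmic destruction complex and degraded. TCF/LEF proteins then sit on their target genes with Groucho (TLE) corepressors. When a Wnt ligand is bound, beta-catenin accumulates, displaces Groucho and turns the same sites into activating ones. Beta-catenin is also a known partner of FoxO factors, and in the developing brain Wnt signalling maintains dividing progenitors and patterns the dorsal and posterior neural tube.

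Neural stem cells are dividing cells that can form neurons, astrocytes and oligodendrocytes, and FoxO factors are transcription factors held out of the nucleus by growth factor signalling. The labels call the 6 lines independent and give 1 array of total RNA per line. They name neither the FoxO genes deleted, nor how they were deleted, nor the age, brain region or culture conditions of the lines. The values are MAS5 signals, in arbitrary units, that allow a probe set to be compared between arrays but not with another probe set. Of 9 probe sets for Foxo1, Foxo3 and Foxo4, 8 had a higher mean log2 signal in the lines labelled FoxO-null, and 5 had groups that did not overlap in that direction. The Foxo1 probe set of highest mean read 77.9, 77.8 and 100.3 in the lines labelled FoxO-null, against 20.3, 20.4 and 31.7 in the lines labelled wild-type. That of Foxo4 read 178, 57.2 and 190 against 5.56, 4.14 and 17.1, at or under background on all 3 arrays labelled wild-type. That of Foxo3 read 578, 667 and 856 against 267, 611 and 507, with overlapping groups. The signals thus go against the labels. Whether any of these probe sets covers a deleted exon cannot be read from the sources used here, and every direction below follows the labels. All 8 neural stem cell markers (Nes, Sox2, Pax6, Msi1, Prom1, Fabp7, Vim and Nr2e1) were above background on all 6 arrays. Background is the highest bacterial control probe set of an array, between 14.4 and 27.6, and the 3 arrays labelled FoxO-null had the 3 highest of these levels.

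Transcript start windows are shown for the genes behind the 2 probe sets with an unadjusted p under 0.05, Tcf7l1 and Tle1, and for the only window of the set with a TCF/LEF core motif. Each runs from 250 bases before to 50 bases after an annotated start, on the gene's strand, in RefSeq's mouse annotation of build GRCm38.p6. Capitals mark the TCF/LEF core CTTTGA or its reverse complement TCAAAG; the FoxO core GTAAACA and its reverse complement TGTTTAC were also searched and are absent from these 3 windows. The first window is chr6:72788996-72789295 on the minus strand, the second chr4:72200844-72201143 on the minus strand and the third chr3:131156044-131156343 on the plus strand.
Tcf7l1: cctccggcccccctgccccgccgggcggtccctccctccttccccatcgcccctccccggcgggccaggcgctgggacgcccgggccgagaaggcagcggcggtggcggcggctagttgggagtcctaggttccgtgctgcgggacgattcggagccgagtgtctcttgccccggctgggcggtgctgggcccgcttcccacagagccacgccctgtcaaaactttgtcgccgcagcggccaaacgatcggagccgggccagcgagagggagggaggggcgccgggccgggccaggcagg
Tle1: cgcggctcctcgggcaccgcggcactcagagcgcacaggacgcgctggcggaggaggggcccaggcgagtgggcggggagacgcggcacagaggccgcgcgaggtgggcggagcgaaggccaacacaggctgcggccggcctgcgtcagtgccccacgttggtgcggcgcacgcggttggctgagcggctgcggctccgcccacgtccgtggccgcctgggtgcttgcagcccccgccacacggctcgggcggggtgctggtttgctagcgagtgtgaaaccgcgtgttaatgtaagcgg
Lef1: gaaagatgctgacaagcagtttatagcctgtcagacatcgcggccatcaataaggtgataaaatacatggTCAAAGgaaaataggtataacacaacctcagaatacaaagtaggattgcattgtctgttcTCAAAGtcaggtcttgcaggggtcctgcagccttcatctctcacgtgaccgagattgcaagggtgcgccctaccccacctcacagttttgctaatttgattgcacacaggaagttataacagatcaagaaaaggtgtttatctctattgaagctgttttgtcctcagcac
The Lef1 window belongs to the most downstream of its 4 annotated starts, and its 2 cores begin 180 and 120 bases before the start. Over all 32851 windows of this length, 16% hold the TCF/LEF core and 3.65% the FoxO core on either strand. All 9 genes had at least 1 window, and the FoxO core was found in 1 of the 2 windows of Tcf7 and in no other window of the set. The motifs do not overlap each other, and a match describes letters only.

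None of the 21 probe sets passed the threshold, a Benjamini-Hochberg adjusted p under 0.05 over all 45037 probe sets in limma. The smallest adjusted p among them was 0.431. Of all probe sets 1 passed, which is 0.00222%. An unadjusted limma p under 0.05 was reached by 2 of the 21, or 9.52%, both higher in the lines labelled FoxO-null, against 7.24% of all probe sets (3.9% higher and 3.33% lower). The groups did not overlap for 3 of the 21, or 14.3%, all 3 higher, against 12.6% of all probe sets (6.95% higher and 5.67% lower). Both shares are near the background. The log2 difference was above 0 for 10 of 21 probe sets (47.6%), against 53.5% of all, and the median was -0.026 for the members and 0.028 for all probe sets. The median size of the difference, regardless of sign, was 0.21 for the members and 0.23 for all probe sets.

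**Figure D1:**
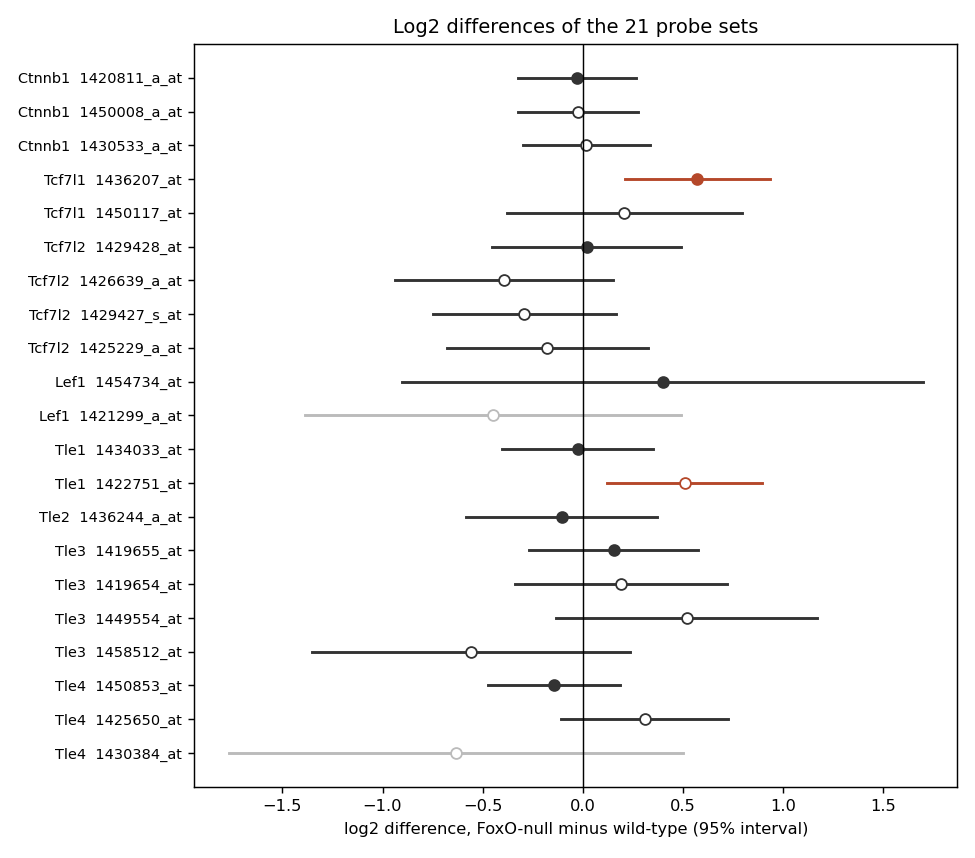
Log2 difference (FoxO-null minus wild-type, x axis) of the 21 probe sets with its 95% interval from limma; filled circles are the probe set of highest mean of each gene and open circles the others. Red marks an unadjusted p under 0.05 (Tcf7l1 at 0.57 and Tle1 at 0.51), and grey marks probe sets at or under background on all 3 arrays labelled FoxO-null; the other intervals cross 0.

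Beta-catenin itself differed little between the groups. The Ctnnb1 probe set of highest mean, 1420811_a_at, read 3595, 4250.1 and 3887 on arrays 1 to 3 of the lines labelled FoxO-null, against 3722, 4427 and 3835 in the lines labelled wild-type. The groups overlapped, with FoxO-null 2 and wild-type 2 the highest of their groups. The means were 3911 ± 328 in the lines labelled FoxO-null and 3995 ± 379 in those labelled wild-type (SD, n = 3 lines each), a log2 difference of -0.030 ± 0.14 (SE) with a 95% interval of -0.33 to 0.27 (limma adjusted p 0.982). The other 2 probe sets lay within 0.03 of 0, at -0.026 and 0.018. The 3 intervals together reached from -0.33 to 0.33, so with 3 lines per group each difference in that range was compatible with at least 1 of the probe sets.

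Tcf7l1, which encodes the family member known mainly as a repressor of Wnt targets in stem cells, had the smallest p of the set. Its probe set of highest mean, 1436207_at, read 134, 143 and 133 in the lines labelled FoxO-null, against 80.1, 100.5 and 90.3 in the lines labelled wild-type. The groups did not overlap. The log2 difference was 0.57 ± 0.17, with a 95% interval of 0.21 to 0.93 (unadjusted limma p 0.00489, adjusted p 0.431), so it did not pass over the whole table. It lay between 0.49 and 0.65 in the fits that left out 1 array. The other Tcf7l1 probe set spanned 76.3 to 108 in the lines labelled FoxO-null and 56.6 to 125 in the lines labelled wild-type. Wild-type 2 was the highest of the 6 arrays there and wild-type 1 the lowest, so the groups overlapped. Its difference was 0.21 ± 0.27, with an interval of -0.38 to 0.79 that also contains the first probe set's value. The difference was -0.012 without wild-type 1 and 0.52 without wild-type 2, both without an unadjusted limma p under 0.05.

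Tcf7l2, which encodes a factor that activates or represses with its partner and is known for roles in oligodendrocyte maturation and the thalamus, varied more between lines than between groups. Its probe set of highest mean, 1429428_at, read 331, 405 and 256 in the lines labelled FoxO-null, against 261, 465 and 270.4 in the lines labelled wild-type. FoxO-null 2 and wild-type 2 were again the highest of their groups, and the log2 difference was 0.019 ± 0.22 (interval -0.45 to 0.49, limma adjusted p 0.994). The probe set 1426639_a_at pointed the other way, with 115, 91.9 and 91.7 in the lines labelled FoxO-null, against 82.1, 175 and 158 in the lines labelled wild-type. Wild-type 1 was the lowest array and wild-type 2 and 3 the highest, and the difference was -0.39 ± 0.25 (limma adjusted p 0.794). Without wild-type 1 it was -0.72, with an unadjusted limma p of 0.00277, and without wild-type 2 it was -0.197 (0.474). The remaining 2 probe sets were at -0.29 and -0.18, also with overlapping groups.

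Lef1, which encodes a factor that mostly activates with beta-catenin and is needed for the hippocampal dentate gyrus, was near background. Its probe set of highest mean, 1454734_at, read 36.8, 6.52 and 39.3 in the lines labelled FoxO-null, against 12.6, 7.62 and 36.0 in the lines labelled wild-type. FoxO-null 1, FoxO-null 3 and wild-type 3 were above their array's background and the other 3 lines were not. The log2 difference of 0.40 ± 0.60 had an interval of -0.90 to 1.70 (limma adjusted p 0.928), which includes a difference of more than 2-fold. Leaving out FoxO-null 2 gave 1.005, leaving out wild-type 3 gave 0.86 and leaving out wild-type 2 gave 0.051. The other probe set, 1421299_a_at, read 0.552, 7.83 and 0.937 in the lines labelled FoxO-null, against 13.6, 4.49 and 1.71 in the lines labelled wild-type. It was at or under background on all 6 arrays, as were 22.4% of all probe sets, and no fold is given for it.

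**Figure D2:**
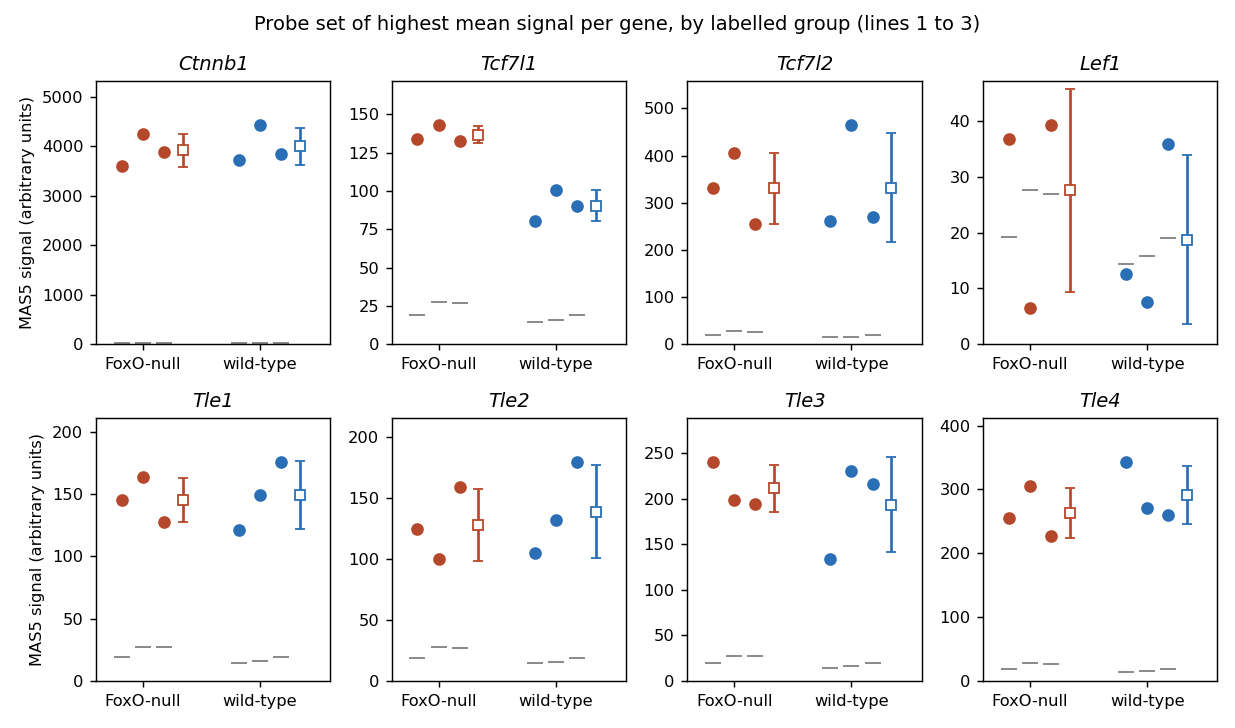
MAS5 signal (y axis, arbitrary units, from 0) of the probe set of highest mean for each of the 8 genes, 1 point per line in the order 1 to 3, FoxO-null left and wild-type right. Squares with bars are mean ± SD (n = 3 lines) and grey dashes each array's background; Tcf7l1 is the only one of the 8 whose groups do not overlap, and Lef1 is above background on 3 arrays.

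The Groucho genes encode the corepressors that TCF/LEF and Hes proteins recruit. For Tle1 the probe sets disagreed. The one of highest mean, 1434033_at, read 145, 163 and 128 in the lines labelled FoxO-null, against 121, 149 and 176 in the lines labelled wild-type. These overlapped, with a log2 difference of -0.026 ± 0.17 (interval -0.40 to 0.35, limma adjusted p 0.990). The other, 1422751_at, read 134, 178 and 145 in the lines labelled FoxO-null, against 118, 109.9 and 88.0 in the lines labelled wild-type, without overlap. Its log2 difference was 0.51 ± 0.18 (interval 0.12 to 0.89, unadjusted limma p 0.0144, adjusted p 0.552), and groups without overlap in this direction were found for 6.95% of all probe sets. The unadjusted call was lost without FoxO-null 2 (0.39, p 0.0765), without wild-type 3 (0.39, p 0.0580) and with median centring of the arrays (0.44, p 0.0659). Whether the 2 probe sets read different transcripts of Tle1 was not tested.

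Tle2 had a single probe set. It read 125, 99.9 and 159 in the lines labelled FoxO-null, against 105, 132 and 179.9 in the lines labelled wild-type, with overlapping groups. The log2 difference was -0.10 ± 0.22 (interval -0.58 to 0.37, limma adjusted p 0.956).

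In Tle3 different lines stood out in different probe sets. The probe set of highest mean, 1419655_at, read 241, 199 and 194 in the lines labelled FoxO-null, against 134, 231 and 216 in the lines labelled wild-type. Wild-type 1 stood below the other 5 lines, which overlapped. The log2 difference of 0.15 ± 0.19 (limma adjusted p 0.911) was -0.084 without wild-type 1. Of the other 3 probe sets, 1419654_at had the same low array and a difference of 0.19, and 1449554_at was at 0.52 ± 0.30, again with overlapping groups. There wild-type 2 was the lowest array, and the difference was 0.22 without it and 0.74 without wild-type 3 (unadjusted limma p 0.0419). The fourth, 1458512_at, read 34.7, 19.4 and 25.2 in the lines labelled FoxO-null, against 29.7, 55.2 and 41.2 in the lines labelled wild-type, a difference of -0.56 ± 0.36 (limma adjusted p 0.799). FoxO-null 2 and FoxO-null 3 were under background there.

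Tle4, known in the cortex as a marker of corticothalamic neurons, also had probe sets of opposite sign. The one of highest mean, 1450853_at, read 255, 306 and 228 in the lines labelled FoxO-null, against 344, 270.3 and 259 in the lines labelled wild-type. The groups overlapped, with a log2 difference of -0.14 ± 0.15 (interval -0.47 to 0.19, limma adjusted p 0.894). The probe set 1425650_at read 96.1, 91.1 and 99.0 in the lines labelled FoxO-null, against 72.2, 88.4 and 68.2 in the lines labelled wild-type, without overlap. Its difference of 0.31 ± 0.19 had an interval that includes 0 (limma adjusted p 0.789). The third lay at or under background on all 3 arrays labelled FoxO-null and on 1 labelled wild-type, and no fold is given for it.

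Across the set, single lines stood out more than the labels did. Wild-type 1 was the lowest of the 6 arrays for 9 of 21 probe sets, against 19.4% of all probe sets, and wild-type 2 was the highest for 8 of 21, against 14.3% of all. Probe sets of 1 gene can share transcripts, so these are not 21 separate observations. As a difference from each probe set's mean over the 6 lines, the median of the 21 stood at -0.25 for wild-type 1, at 0.16 for wild-type 2 and between -0.040 and 0.093 for the other 4. Over all probe sets these medians ran from -0.039 (wild-type 1) to 0.050 (FoxO-null 3). Without wild-type 1, the number of members with a positive difference was 5 of 21 in place of 10. The 5' probe set of the 18S rRNA control read 23.5, 28.5 and 25.0 on the arrays labelled FoxO-null, against 211, 38.7 and 38.9 on those labelled wild-type. It thus split by label as well as standing out in wild-type 1, and its part in these results was not tested.

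**Figure D3:**
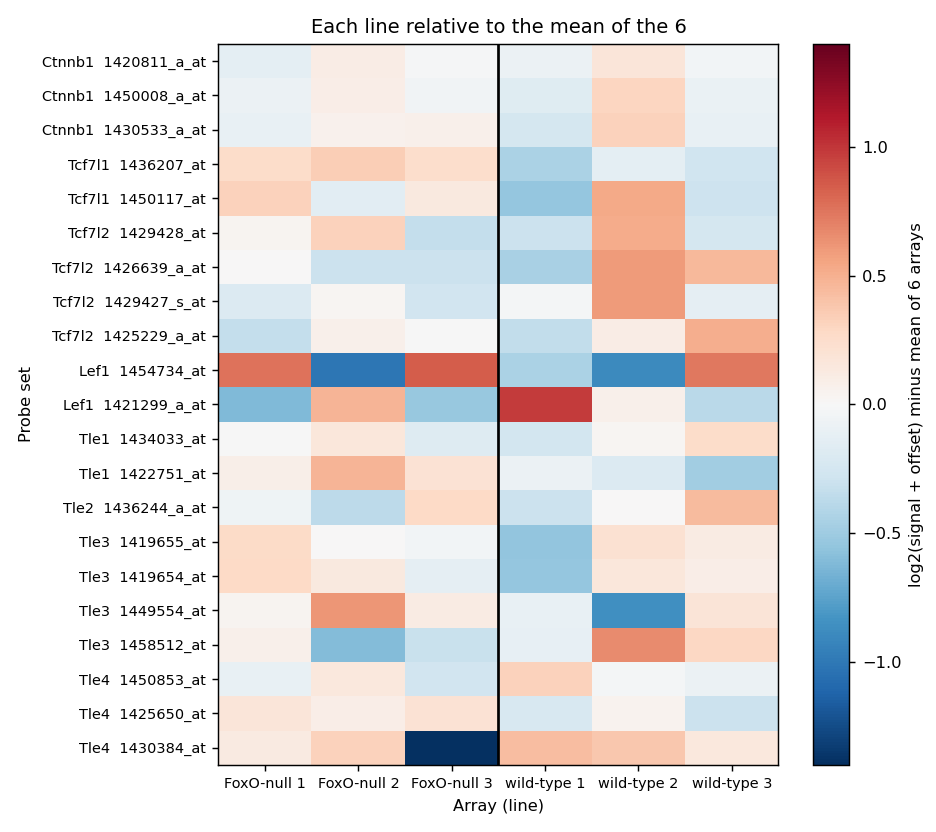
Log2 signal of each of the 21 probe sets (rows) on each array (columns, FoxO-null 1 to 3 left of the line and wild-type 1 to 3 right) minus the mean of the 6 arrays, red above and blue below. Wild-type 1 is mostly blue (median -0.25) and wild-type 2 mostly red (median 0.16), while the columns labelled FoxO-null mix both.

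For the 3 genes with the largest range over the 6 arrays, the genes of most similar profile were listed by the root mean square distance between centred log2 signals over 6 arrays, among 12664 other genes. Lef1, for which 3 of the 6 arrays were at or under background, had a range of 1.86 that rests in part on those weak signals, and lay nearest to Zc3h3 (0.21), Agxt (0.295) and Fam78a (0.30). Zc3h3 read 106, 36.5 and 105 in the lines labelled FoxO-null, against 37.1, 34.7 and 88.2 in the lines labelled wild-type, so its high lines were those of Lef1. Tcf7l2 had a range of 0.85 and lay nearest to Bmf (0.097), Ddx23 (0.10) and Chpf (0.10). Tle3 had a range of 0.82 and lay nearest to Nudt8 (0.059), Tceal9 (0.068) and the signalling adaptor gene Gab2 (0.068).

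Among other genes of the pathway and genes linked to its members, together called pathway genes here, 128 genes of 8 lists were measured. Some were in more than 1 list, and each was read by its probe set of highest mean. Of these, 1 passed over all probe sets, and by the same choice of probe set 1 of all 18193 genes passed (0.0055%). The 1 was Hes5, a Notch effector gene that entered through the list of factors that recruit Groucho. At an unadjusted limma p under 0.05, 7 of the 128 were above and 10 below the wild-type level, against 4.72% and 4.01% of all genes. Of the 7 higher, 3 (Hes5, Hey1 and Pax5) came from that same list. The balance of these counts followed single arrays: 7 were higher and 3 lower without wild-type 3, 9 higher and 7 lower without FoxO-null 3, and 8 higher and 14 lower without wild-type 1. With median centring of the arrays 4 were higher and 12 lower. Of the 17 calls, 6 held in each of the 6 fits that left out 1 array, namely Btrc, Hes5 and Hey1 on the higher side and Ccnd1, Fzd1 and Myc on the lower. The other 11 each lost an unadjusted p under 0.05 in at least 1 of these fits. They were Fzd2, Ppp2r5a, Ctnnd1 and Pax5 on the higher side and Wls, Lgr5, Ryk, Dvl2, Vcl, Cdc73 and Hdac1 on the lower. The median log2 difference was 0.0061 for the 128 genes and 0.026 for all genes.

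On the signal-sending side, none of 21 genes for Wnt ligands and their secretion passed, 0 were higher and 1 lower at an unadjusted limma p under 0.05, and the median was 0.12. The 1 was Wls, which encodes the carrier that brings Wnt proteins to the cell surface. It read 102, 151 and 94.4 in the lines labelled FoxO-null, against 133, 210 and 224 in the lines labelled wild-type, a log2 difference of -0.67 ± 0.22 (limma adjusted p 0.527) with overlapping groups. The ligand genes Wnt3 and Wnt16 came next and were at or under background on all 6 arrays. Only 5 of the 21 genes were above background on all 6 arrays, and 6 were at or under it on all 6. The list's median was 0.065 with an offset of 16 and 0.22 with an offset of 1. It was 0.014 without wild-type 2 and 0.30 without wild-type 3. Of the 22 receptor and R-spondin genes, 1 was higher and 3 lower at that level, with a median of 0.050. The 1 higher was Fzd2, at 0.41 (unadjusted limma p 0.0364), a call that held in 3 of the 6 fits that left out 1 array. Fzd1, a Wnt receptor gene, was at -0.57 ± 0.17 (adjusted p 0.439), Lgr5, an R-spondin receptor gene that is itself a Wnt target, at -0.71 ± 0.29 (0.631), and the receptor kinase gene Ryk at -0.33 ± 0.13 (0.633).

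In the cytoplasm, 2 of 19 dishevelled and destruction complex genes were higher and 1 lower at an unadjusted limma p under 0.05, with a median of 0.024. Btrc, which encodes the ubiquitin ligase subunit that recognises marked beta-catenin, read 225, 211 and 277 in the lines labelled FoxO-null, against 177, 175 and 152 in the lines labelled wild-type. The groups did not overlap, and the log2 difference was 0.48 ± 0.15 (limma adjusted p 0.485). The phosphatase subunit gene Ppp2r5a was at 0.36 ± 0.13 (0.565) and the Wnt signal transducer gene Dvl2 at -0.40 ± 0.17 (0.657). In adhesion, where beta-catenin links cadherins to actin, 1 of 12 genes was higher and 1 lower, with a median of 0.025. Ctnnd1, the p120 catenin gene, was at 0.38 ± 0.14 (0.588) and at 0.23 without wild-type 1 (unadjusted p 0.0849), the actin linker gene Vcl at -0.42 ± 0.16 (0.609) and the cadherin gene Cdh4 at -0.34 ± 0.16 (0.705).

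In the nucleus, 0 of 16 beta-catenin cofactor genes were higher and 1 lower at an unadjusted limma p under 0.05, with a median of 0.0048. The 1 was Cdc73, a Paf1 complex gene, at -0.37 ± 0.17 (limma adjusted p 0.676), followed by the chromatin remodeller gene Smarca4 at -0.14 ± 0.11 and the beta-catenin antagonist gene Cby1 at -0.17 ± 0.14. Corepressor partners and the other Groucho genes had a negative difference in 7 of 8 measured genes, against 46.3% of all genes, and a median of -0.14, with 1 lower at that level. Without wild-type 3 the median was -0.065 and 0 were lower. The histone deacetylase gene Hdac1 read 320.1, 357 and 243 in the lines labelled FoxO-null, against 396, 377 and 406 in the lines labelled wild-type, a log2 difference of -0.37 ± 0.14 (limma adjusted p 0.615). Without FoxO-null 3 it was -0.21 (unadjusted limma p 0.115), and without wild-type 3 -0.34 (0.0661). Tle5, which encodes a short Groucho relative that can counter the long forms, was at -0.29 ± 0.14 (0.705), and Hdac2 at -0.16 ± 0.10 (0.800). With median centring of the arrays the number negative was 8 of 8, and with quantile normalization 6 of 8.

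Of 16 measured genes listed as transcription factors that recruit Groucho, 3 were higher and 0 lower at an unadjusted limma p under 0.05, against 4.72% and 4.01% of all genes. Their median was 0.026, as was that of all genes. Only 7 of the 16 were above background on all 6 arrays, and 2 were at or under it on all 6. Whether each of the 16, Hey1 included, recruits Groucho was not tested. Hes5, a Notch effector, rose by a log2 difference of 1.41 ± 0.15 and was the 1 gene past the threshold (limma adjusted p 0.0272). It read 406, 349 and 295 in the lines labelled FoxO-null, against 114, 134 and 133 in the lines labelled wild-type. Without any 1 of the 6 arrays this call was lost, and the adjusted p then lay between 0.0557 and 0.427. Hey1, another Notch effector, was at 0.68 ± 0.21 (0.492) and Pax5, a midbrain and hindbrain factor gene, at 1.39 ± 0.54 (0.608), with 3 of its arrays under background.

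Direct Wnt targets had a positive difference in 5 of 19 measured genes, against 53.7% of all genes, with a median of -0.12 against 0.026 for all genes, and none passed. At an unadjusted limma p under 0.05, 0 were higher and 3 lower, against 4.72% and 4.01% of all genes. The 3 were Myc, Ccnd1 and Lgr5, and Lgr5 is the same gene already counted among the receptors. Its call held in 2 of the 6 fits that left out 1 array. Of the 19 genes, 11 were above background on all 6 arrays and 5 at or under it on all 6. With the filter on low signals, 3 of 12 were positive and the median was -0.21. Axin2, the feedback target most often used to read the pathway, read 141, 169.9 and 123 in the lines labelled FoxO-null, against 150.3, 148 and 172 in the lines labelled wild-type. The groups overlapped, at -0.12 ± 0.16 (interval -0.47 to 0.23, limma adjusted p 0.916), and leaving out FoxO-null 2 gave -0.24, FoxO-null 3 -0.016 and wild-type 3 -0.056. Myc, a growth regulator that other pathways also drive, read 231, 185 and 156 in the lines labelled FoxO-null, against 325, 259.6 and 319 in the lines labelled wild-type. Its difference was -0.65 ± 0.16 (limma adjusted p 0.330), and the groups did not overlap. The cyclin D1 gene Ccnd1 was at -0.63 ± 0.16 (0.341), also without overlap. In the fits that left out 1 array the list had 4 to 8 positive differences, 0 to 1 genes higher and 2 to 5 lower. The extremes were 8 positive, with 1 higher, 2 lower and a median of -0.046, without wild-type 3, and 5 lower, with a median of -0.20, without FoxO-null 2.

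**Figure D4:**
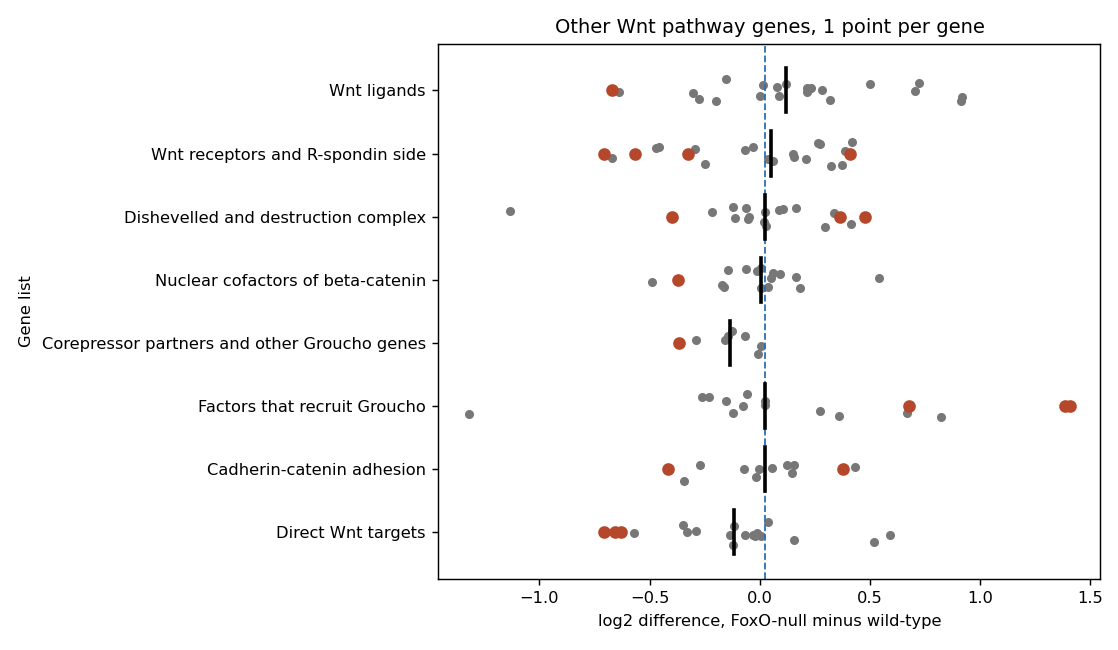
Log2 difference (FoxO-null minus wild-type, x axis) of the genes of 8 lists of Wnt pathway genes and genes linked to its members, 1 point per gene, with red for an unadjusted p under 0.05, a black bar for the list's median and a dashed line for the median of all genes. The medians of the corepressor list (-0.14) and of the direct targets (-0.12) lie left of 0. Hes5 at 1.41, a Notch effector in the list of factors that recruit Groucho, is the only gene past the adjusted threshold.

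Cell type markers are given because several of these genes differ between neural cell types. Oligodendrocyte lineage markers summed to between 17160 and 17913 in the lines labelled FoxO-null, against 13866 to 15421 in the lines labelled wild-type, with 5 of 9 higher at an unadjusted limma p under 0.05, against 4.72% of all genes, and 6 of 9 with a positive difference. Astrocyte markers summed to between 4666 and 5516 in the lines labelled FoxO-null, against 3553 to 4052 in the lines labelled wild-type, with 3 of 7 higher at that level. Sums add different probe sets and weigh those of strongest signal most. Medians of the log2 differences from each gene's mean over the 6 lines were therefore also read. For the oligodendrocyte lineage they were 0.050, 0.23 and 0.33 in the lines labelled FoxO-null, against -0.040, -0.34 and -0.20. For astrocytes they were 0.33, 0.31 and 0.20, against -0.24, -0.33 and -0.19. The neural stem cell markers moved too, with 3 of 8 higher (Nr2e1, Msi1 and Prom1), 1 lower (Nes), 6 of 8 positive and a median of 0.25. None of the 3 lists had a member past the adjusted threshold, and their part in the Tcf7l1, Tle1 and Btrc values was not tested. In such bulk samples, more cells of a type and more RNA per cell cannot be told apart. Of the neuron markers, 6 of 7 were above background on all 6 arrays. A positive difference was found for 2 of these 7, with a median of -0.098 and 0 higher and 0 lower at an unadjusted limma p under 0.05. Of the blood and microglia markers 4 of 6, and of the endothelial markers 2 of 5, were at or under background on all 6 arrays. Midbrain, hindbrain and Hox genes summed to 585, 629 and 629.8 in the lines labelled FoxO-null, against 372, 837 and 958 in those labelled wild-type. Wild-type 1, the low line of the set, was thus also the lowest here. Of these 20 genes, 4 were above background on all 6 arrays and 7 at or under it on all 6. Dorsal telencephalon genes summed to 842, 747 and 650 against 744, 521 and 521 in the same order. Ventral ones, 0 of 6 above background on all 6 arrays, summed to 90.4, 75.7 and 49.0 against 118, 77.9 and 52.8. In both, wild-type 1 was the highest of the lines labelled wild-type.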

How the data were processed

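Total RNA of 6 lines was measured on 1 Affymetrix array each. The deposited values are intensity signals made by the authors with MAS5, per the submitters' processing notes, its version not given in the sources used here. Each array has a mean of 100 after trimming 2% at each end, and this scaling was kept (array medians differ 1.29-fold). The 64 controls were left out of the fit, 27 of them Bacillus probe sets that set the background.

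Signals were turned into log2(signal + 5.94), the 20th percentile being the offset, which understates changes of weak signals. All 45037 probe sets entered one limma model (lmFit, then eBayes with a trend on intensity; limma 3.58.1, R 4.3.3, data.table version 1.17.8), without filter or covariate, two-sided, with Benjamini-Hochberg adjustment. With so few arrays precision is low, and 3 lines against 3 allow no exact permutation p below 0.1. In 10 simulations with 200 of the 45037 probe sets changed, 58.9% of 4-fold and 21.3% of 2-fold changes were recovered, and 2.85% of calls were false. The changed probe sets were drawn from those above the 40th percentile of mean signal, with noise independent between probe sets. These rates therefore do not cover weaker probe sets or shifts shared across an array.

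The members and lists were chosen with earlier results of these data known. Named are each gene's probe set of highest mean, others with a p under 0.05 or of opposite sign at 0.3 or more, up to 3 genes of smallest p per pathway list, and Axin2, Ccnd1, Myc and FoxO genes. The second Tcf7l1 and further Tle3 probe sets and the gene Fzd2 were added after their values were seen. Alternatives were the offset, normalization, a filter, the trend, the mean over probe sets, each array left out and a replicate block.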

Additional observations from a re-analysis of the deposited data

How the results depend on the processing

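No member probe set passed the adjusted threshold in limma under any of the 13 alternatives run, where 1 to 3 had an unadjusted p under 0.05 (2 in the reported fit). That number was 1 with median centring and ranged from 1 to 3 over the fits that left out 1 array, with 1 without FoxO-null 2 and 3 without wild-type 1, where Tcf7l2 was added on the lower side. The single call over all probe sets and the single call among pathway genes (Hes5) were both 0 with an offset of 16, median centring, no intensity trend or the replicate block, where 3252, 2847, 2754 and 3444 probe sets and 18, 16, 7 and 23 pathway genes had an unadjusted limma p under 0.05. Leaving out 1 array gave 0 to 1 calls over all probe sets and 0 among pathway genes (10 to 22 unadjusted, 5 to 9 higher and 3 to 14 lower). The replicate numbers were not taken to pair the lines. Same-numbered arrays correlated at 0.014, 0.064 and 0.105 in their deviations from the group means, with 1 of 3 pairs over a limit of 0.1. On the other side, 4 of 6 arrays correlated best with their own number. These values do not settle whether the numbers pair the lines, and the replicate block was therefore run as an alternative.

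Of the log2 differences by probe set of highest mean, those of Tcf7l1 (0.39 to 0.65) and Tle4 (-0.26 to -0.021) kept their sign in all 14 alternatives. With the mean of all probe sets of a gene, Tcf7l2 was at -0.21, Lef1 at -0.025 and Tle1 at 0.24, and with median centring Tcf7l2 was at -0.049. Leaving out 1 array gave -0.091 to 0.046 for Ctnnb1, -0.14 to 0.28 for Tcf7l2, 0.051 to 1.005 for Lef1, -0.16 to 0.098 for Tle1, -0.28 to 0.091 for Tle2 and -0.084 to 0.298 for Tle3. The cause of these changes was not tested. Lef1 and the weakest Tle3 and Tle4 probe sets are limited by signals near background.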

Other observations

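The Lef1 probe set of highest mean was above background on the same 3 lines that had low signals of Xist, the X-inactivation transcript. Xist read 35.8 on FoxO-null 1, 33.1 on FoxO-null 3 and 25.5 on wild-type 3, where Lef1 read 36.8, 39.3 and 36.0. In FoxO-null 2 Xist stood at 5922 and Lef1 at 6.52. Xist stood at 3733 in wild-type 1 and at 6327 in wild-type 2, and Lef1 there at 12.6 and 7.62. Both groups hold lines of each kind, and this was noticed after the values were seen and was not tested.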
